A study of Mus musculus with 24 samples.

Results

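A set of 33 genes of fatty acid oxidation and ketone body metabolism was followed in isolated mouse retinal pigment epithelium (RPE), the pigmented cell layer behind the photoreceptors. The 33 members, out of 31053 gene identifiers in each count file, were taken by symbol: the carnitine shuttle that carries fatty acids into mitochondria, the enzymes of the mitochondrial oxidation spiral and its electron carriers, 3 peroxisomal enzymes, 3 enzymes of ketone body metabolism, and regulators and fuel switches. RNA was counted in 24 libraries, 4 in each of 6 groups. Control animals carried the Dct-Cre driver, a Cre recombinase gene under a pigment cell promoter, and mutant animals carried Dct-Cre with the floxed Ift20 gene, which codes for a part of the transport machinery of cilia. Both genotypes were sampled on postnatal days 11 (P11) and 29 (P29) and at the age of 3 months (3M). All 6 groups therefore share the Cre driver, and all animals were of mixed strain background with sex not recorded. By the labels the libraries of a group are biological replicates, but how many animals went into each is left unstated, and p-values measure the spread between these libraries.

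The RPE swallows the lipid-rich outer segment tips that photoreceptors shed every day, so it receives a steady load of fatty acids. In mitochondria a chain of 4 repeated reactions shortens each acyl-CoA, and the electrons released pass through the electron transfer flavoprotein to the respiratory chain. Part of the acetyl-CoA can be turned into ketone bodies in mitochondria, and ketone bodies leave or enter cells through monocarboxylate transporters such as Slc16a1. The nuclear receptor Ppara and its coactivator Ppargc1a are known activators of many of these genes, and they act with partners that bind the DNA half-site AGGTCA.

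Promoter sequence just before the start sites is shown for 5 members called in at least 1 age comparison and for the shared start region of Hadha and Hadhb. Acadm and Cpt1a, each called in 1 age comparison, carry the half-site, and Hadhb was called in 0. The stretches shown are therefore not a representative sample of the members. All come from the RefSeq promoter table of GRCm38.p6, are written 5′ to 3′ on the strand of the gene, and hold no annotated exon. Hadha and Hadhb, the 2 subunit genes of the mitochondrial trifunctional protein, face away from each other on chromosome 5. In the GENCODE annotation of GRCm38 their first bases are separated by 85 bases at chr5:30155163-30155247, shown on the strand of Hadhb with the whole gap in capitals. Between their RefSeq starts there are 272 bases. In the other 5 stretches, capitals mark AGGTCA or its reverse complement. Acadl is at chr1:66863310-66863559 on the minus strand, Eci1 at chr17:24426433-24426640 and Etfb at chr7:43443822-43444071, both on the plus strand. Acadm is at chr3:153944644-153944893 on the minus strand, and Cpt1a at chr19:3323051-3323284 on the plus strand. The GENCODE gene of Cpt1a begins further upstream, at 3322334, so the Cpt1a stretch lies before the RefSeq start only.
Hadha-Hadhb gap: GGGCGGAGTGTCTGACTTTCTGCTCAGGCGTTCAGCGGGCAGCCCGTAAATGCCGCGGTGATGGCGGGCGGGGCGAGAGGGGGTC
Acadl: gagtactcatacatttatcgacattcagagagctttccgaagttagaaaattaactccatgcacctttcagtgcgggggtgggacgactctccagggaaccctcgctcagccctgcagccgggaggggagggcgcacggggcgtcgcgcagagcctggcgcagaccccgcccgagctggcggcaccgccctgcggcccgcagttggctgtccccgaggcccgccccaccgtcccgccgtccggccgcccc
Eci1: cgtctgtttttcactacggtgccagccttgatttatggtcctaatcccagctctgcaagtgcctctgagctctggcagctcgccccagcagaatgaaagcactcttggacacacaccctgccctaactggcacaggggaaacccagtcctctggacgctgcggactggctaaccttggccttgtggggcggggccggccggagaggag
Etfb: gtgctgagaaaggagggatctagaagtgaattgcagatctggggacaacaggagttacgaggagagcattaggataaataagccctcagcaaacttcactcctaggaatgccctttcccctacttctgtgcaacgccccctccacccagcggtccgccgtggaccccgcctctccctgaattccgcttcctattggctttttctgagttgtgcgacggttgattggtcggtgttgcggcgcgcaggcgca
Acadm: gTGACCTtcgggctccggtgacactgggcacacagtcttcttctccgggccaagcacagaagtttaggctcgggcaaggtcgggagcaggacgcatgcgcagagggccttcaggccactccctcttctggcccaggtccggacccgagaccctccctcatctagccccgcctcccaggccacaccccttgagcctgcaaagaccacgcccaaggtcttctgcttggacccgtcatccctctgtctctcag
Cpt1a: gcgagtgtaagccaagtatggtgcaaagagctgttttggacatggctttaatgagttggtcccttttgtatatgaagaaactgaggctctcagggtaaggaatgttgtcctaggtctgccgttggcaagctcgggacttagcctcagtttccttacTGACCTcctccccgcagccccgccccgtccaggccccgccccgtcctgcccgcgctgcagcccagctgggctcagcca

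Of the 33 members, 27 had at least 1 promoter window of 300 bases in that table (250 before and 50 after the start), 29 windows in all. The half-site AGGTCA, searched on both strands, was present in 5 of these 29 windows (17.2%), those of Acadm, Acadvl, Cpt1a, Cpt1c and Echs1. It was present in 16.3% of the 32851 windows of the whole table, so the member share was near the background. The half-site began 249 bases before the RefSeq start in Acadm and 94 bases before the RefSeq start in Cpt1a. The direct repeat AGGTCANAGGTCA, which contains the half-site in each of its arms, was found in 0 member windows and in 0.0396% of all windows. The longer form TCAAGGTCA was found in 0 member windows and in 0.423% of all windows. These counts describe letters in these windows and say nothing about binding. The median GC content was 60.7% in the member windows and 52.7% in all windows.

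The depth of the 24 libraries was 1513440 to 2889946 gene counts. Levels are given in CPM, counts scaled to a common library total with TMM factors, and 3 counts, the lowest level taken as detectable, equal 1.04 to 1.98 CPM. This floor covers counting error only. The libraries were made from tags near the 3′ end of transcripts, so a level is not proportional to transcript length and levels of different genes are not compared here. The floxed gene itself had a mean at P11 of 102 CPM for controls and 85.2 CPM for mutants (log2 fold change -0.27, SE 0.16, adjusted p 0.353). At P29 Ift20 averaged 108 and 71.1 CPM (-0.60, SE 0.15, adjusted p 0.0112), and at 3M 134 and 111 CPM (-0.26, SE 0.15, adjusted p 0.547). Since the place of the deletion relative to these tags was not given in the sources used here, Ift20 is no check of the genotypes.

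A low-count filter left 29 of the 33 members among 12303 tested genes. The other 4 did not pass it. Cpt1b, the muscle form of the entry enzyme of the carnitine shuttle, had 0 counts in all 24 libraries, and the same-strand readthrough model Gm44502 that overlaps its 3′ end also had 0. Since the handling of reads shared by overlapping genes was not given in the sources used here, the 0 of Cpt1b is uncertain. Fabp3, a fatty acid binding protein of heart and muscle, had 99 counts spread over 16 libraries and reached 9.98 CPM at most, in a P11 mutant library with 23 counts. The 3′ end of Fabp3 overlaps Zcchc17 on the opposite strand, which had 3649 counts in all, so its reads may not be separated from those of Zcchc17. Pdk4, a kinase that turns off pyruvate dehydrogenase, had 48 counts in 17 libraries with a highest level of 5.99 CPM. Ehhadh, the bifunctional enzyme of peroxisomal oxidation, had 20 counts in 10 libraries with a highest level of 2.3 CPM. No difference between groups was tested for these 4 genes.

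The summed level of all 33 members stepped up with age in both genotypes. The sum ran from 1842 to 1948 CPM in the 4 control libraries at P11, from 2352 to 2562 at P29 and from 2937 to 3178 at 3M. In mutants it ran from 1830 to 1936 CPM at P11, from 2289 to 2421 at P29 and from 2964 to 3094 at 3M. The ranges of successive ages did not overlap in either genotype, while control and mutant ranges overlapped at each age.

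From P11 to P29 in controls, 12 of the 29 tested members rose and 1, Acsl1, fell, at an adjusted p under 0.05 in edgeR. The members' median log2 fold change was 0.42, beside -0.02 over all tested genes. Among all tested genes 32% were called in this comparison, 16.5% as higher and 15.6% as lower. In mutants 12 members again rose and Acsl1 again fell, with a median of 0.33 beside -0.01 for all genes. There the background was 31.7%, made up of 16.4% higher and 15.2% lower. The call was shared by both genotypes for 10 members, out of 12 in each.

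In controls 8 members rose from P29 to 3M and 0 fell, at a median log2 fold change of 0.22 beside -0.03 for all genes. The background of calls was 12%, of which 3.49% higher and 8.5% lower. In mutants 7 members rose and 0 fell, with a median of 0.33 beside -0.01, against a background of 12.7% (5.44% higher and 7.27% lower). The call was shared by both genotypes for 5 members, Acadl, Acaa2, Eci1, Etfb and Ucp2. Acadl, Acaa2, Eci1 and Etfb, 4 of the 29, were called higher in each of the 4 age comparisons, 18 members were called in at least 1, and 11 in none. The share of all tested genes was not taken for calls combined over comparisons or shared by both genotypes. Whether these combined counts of members are unusual is therefore not known. The age comparisons within a genotype share the P29 libraries.

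**Figure D1:**
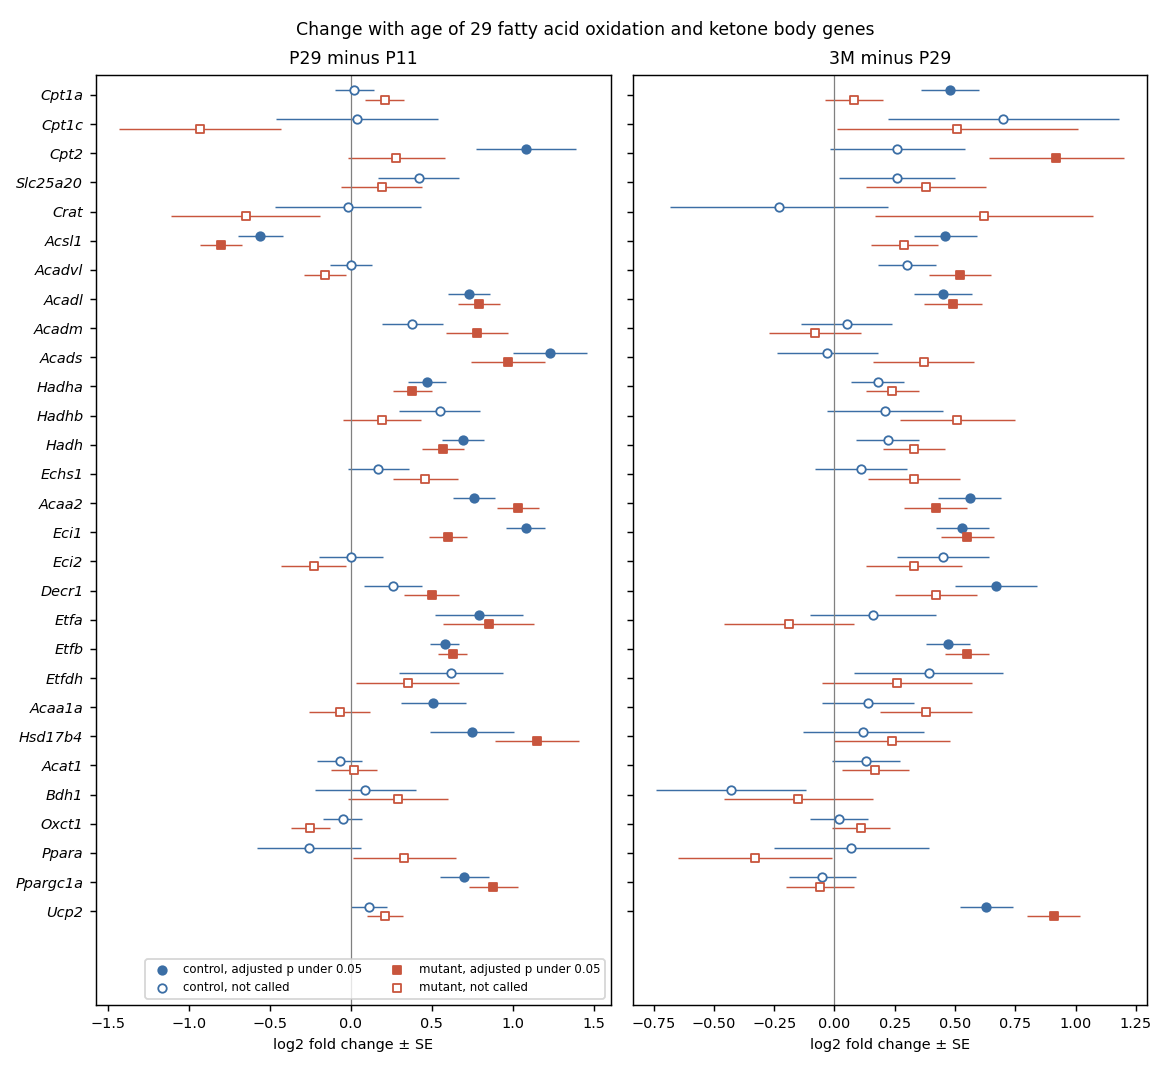
Log2 fold change (x axis, with its SE as bars) of the 29 tested members from P11 to P29 (left) and from P29 to 3M (right), with controls as circles and mutants as squares; filled symbols have an adjusted p under 0.05. Most filled symbols lie right of 0, and Acsl1 lies left of 0 in both genotypes from P11 to P29.

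Marker levels of several cell types also moved over the same intervals. The summed level of 10 RPE markers ran from 18963 to 19700 CPM in control libraries at P11, from 47132 to 47769 at P29 and from 63223 to 65876 at 3M, and all 10 had counts in each group. In controls 8 of the 9 tested RPE markers rose in each interval and 1 fell. The 14 rod markers summed to between 14051 and 15283 CPM in P11 controls, 11845 and 12669 at P29, and 4380 and 4842 at 3M. The 5 erythrocyte markers fell from a range of 26819 to 28892 CPM to 2558 to 3189 and then to 2074 to 2204, with all 5 called lower in each interval in controls and in mutants. The 11 skeletal muscle markers, a tissue rich in these enzymes, summed to at most 188 CPM at P11 and at most 18.7 CPM later, and the 5 adipocyte markers to at most 2.85 CPM in any library. At 3M the control libraries had 0 counts of Mb, Myh1, Myh2, Myl1 and Tnnc2. The mitochondrial share of gene counts was 7.3% to 8.79% in controls and 10.2% to 11.1% in mutants at P11, and 4.41% to 6.58% at the later ages. In RNA of whole preparations, fewer cells of a type and less RNA per cell cannot be told apart, and the part of these shifts in the changes of the members was not tested.

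Between genotypes the markers differed as well. Rod markers summed to between 17486 and 18018 CPM in mutants at P11, 17148 and 18541 at P29, and 7927 and 8413 at 3M, above the control ranges at each age. Of the 14 rod markers, 7, 13 and 13 were called higher in mutants at P11, P29 and 3M. The RPE markers summed to between 18047 and 19113 CPM in mutants at P11, 40604 and 43074 at P29, and 62756 and 66236 at 3M. Of 9 tested, 6 were lower at P11, 4 lower and 1 higher at P29, and 1 lower at 3M. The 9 endothelial markers summed to 362 to 394 CPM in P11 controls and 169 to 218 CPM in P11 mutants, with 5 called lower. The 6 markers of myelinating glia summed to 345 to 471 CPM in P11 controls and 41.6 to 64.7 CPM in P11 mutants, and all 5 tested were called lower, with a median log2 fold change of -3.51. Of 6 pericyte markers 3 were called lower at P11, with sums of 238 to 290 CPM in controls and 111 to 159 CPM in mutants. The 6 stromal fibroblast markers summed to 2914 to 3245 CPM in P11 controls and 2414 to 2653 CPM in P11 mutants, with 2 called lower. Of the 5 erythrocyte markers 2, 4 and 4 were called higher in mutants at P11, P29 and 3M, and 0 lower. Reads with no feature also separated the genotypes at P11, at 22.7% to 24.1% of a control library and 26.5% to 27.5% of a mutant library. The 7 lens markers summed to 25 to 36.5 CPM in P29 controls and 824 to 892 CPM in P29 mutants, with all 7 called higher. Their part in the genotype results given further on was not tested.

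**Figure D2:**
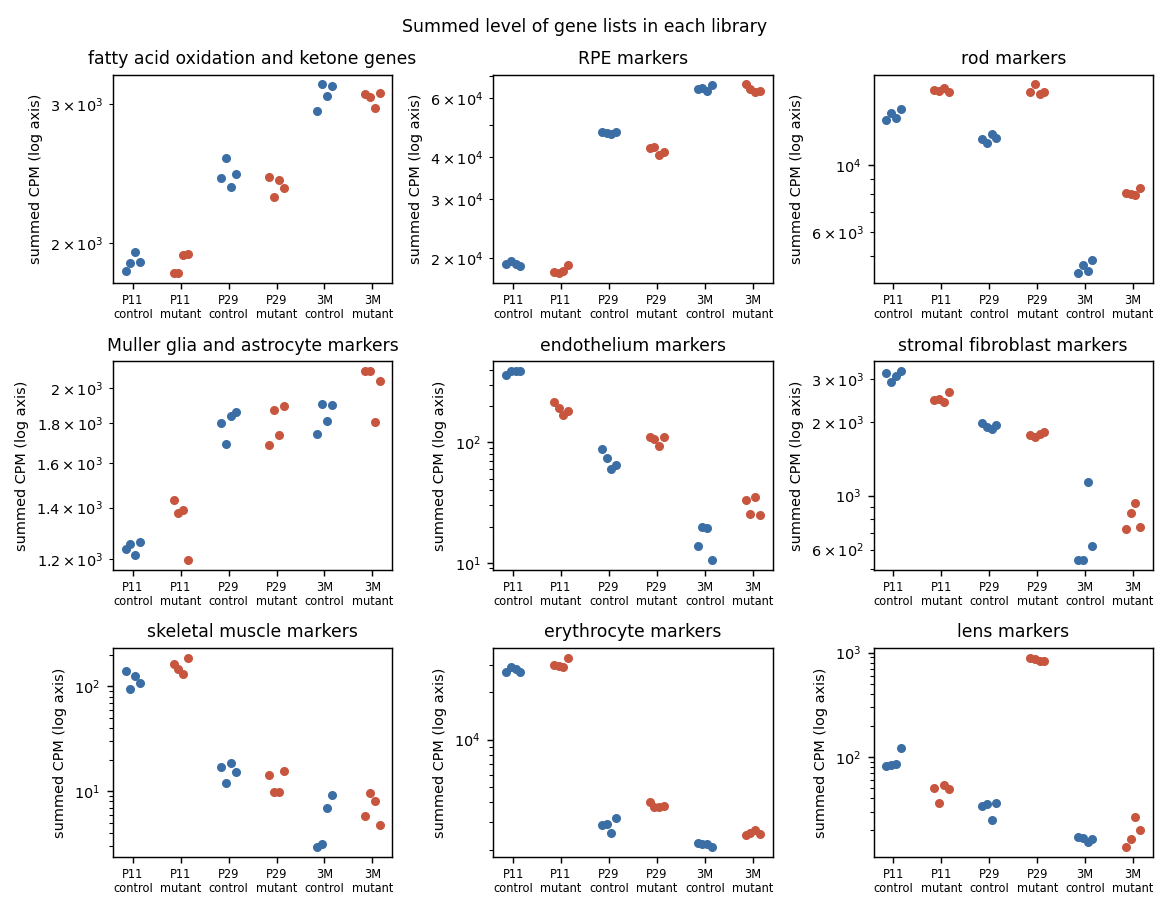
Summed CPM (y axis, logarithmic) of the 33 members and of 8 marker lists in each of the 24 libraries (points), by age and genotype. The members and the RPE markers step up with age, while the erythrocyte and skeletal muscle markers fall after P11 and the lens markers stand high in the P29 mutants.

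Among the carnitine shuttle genes, Cpt1a, the liver-type enzyme that commits long-chain fatty acids to mitochondria, rose late in controls. Its CPM in the control libraries were 129, 101, 143 and 120 at P11, 127, 118, 117 and 140 at P29, and 171, 173, 166 and 186 at 3M. In mutants they were 120, 122, 124 and 140 at P11, 157, 156, 132 and 144 at P29, and 163, 181, 131 and 149 at 3M. The 3M controls stood above all P29 controls, whereas the mutant libraries of these ages overlapped. This later step was a log2 fold change of 0.48 in controls (SE 0.12, adjusted p 0.00163) and 0.08 in mutants (SE 0.12, not called). The difference of the genotype effects between these ages was -0.39 (SE 0.16, adjusted p 0.374), so a difference between genotypes in this rise was not shown.

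Cpt1c, the brain-type relative, was at the lower end of detection. Its control libraries had 4.66, 1.2, 10.1 and 14.3 CPM at P11, 1.78, 11.5, 8.82 and 8.89 at P29, and 13, 14, 10 and 13.3 at 3M. Its mutant libraries had 10.8, 11.3, 7.11 and 14.1, then 5.97, 4.71, 8.51 and 3.52, then 7.8, 5.65, 8.96 and 10. Libraries of the P11 controls and of the P29 controls differed by several fold, those of the other groups by less. No comparison called this gene. Cpt1b was at 0 throughout, as given above.

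Cpt2, the enzyme that reforms acyl-CoA inside the mitochondrion, was called higher at different intervals in the genotypes. Control libraries had 24.9, 17.4, 24.6 and 3.7 CPM at P11, 36.7, 52.8, 30.9 and 31.1 at P29, and 31.5, 38.8, 50.9 and 60.9 at 3M. Mutant libraries had 38.1, 15.6, 17.3 and 31.5, then 25.7, 27.9, 41.3 and 29.3, then 71.8, 60.8, 50.6 and 51.4. In controls the P11 libraries lay below all P29 libraries, and in mutants the P29 libraries lay below all 3M libraries. The log2 fold change from P11 to P29 was 1.08 in controls (SE 0.31, adjusted p 0.0044) and 0.28 in mutants (SE 0.30, not called). From P29 to 3M it was 0.26 in controls (SE 0.28, not called) and 0.92 in mutants (SE 0.28, adjusted p 0.0218). The difference of the genotype effects between ages was not called (-0.81, SE 0.42, adjusted p 0.407 for P29 against P11, and 0.65, SE 0.40, adjusted p 0.674 for 3M against P29). The rise in mutants lost its call without 3M mutant library 1 or 2 or P29 mutant library 1, 2 or 4, with log2 fold changes of 0.81 to 0.90 and adjusted p of 0.0521 to 0.0842.

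The remaining shuttle genes did not pass in any age comparison. Slc25a20, the carrier that exchanges acylcarnitine for carnitine, ran from 17 to 43 CPM over all libraries. Crat, the acetyltransferase for short chains, ran from 1.8 to 17.2 CPM. The 3′ end of Crat overlaps Dolpp1 on the opposite strand, which had 458 counts in all libraries together. With the strand setting of the counting not given in the sources used here, reads of the pair may not be separated.

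Acsl1, which activates long-chain fatty acids by joining them to coenzyme A, was the member that fell. Its control libraries had 108, 102, 122 and 123 CPM at P11, 85.4, 81.8, 75.7 and 65.7 at P29, and 90.2, 113, 117 and 107 at 3M. Mutant libraries had 161, 122, 126 and 141, then 76.7, 70.7, 85.1 and 84.4, then 87.8, 93, 112 and 95.8. All P29 libraries lay below all P11 libraries of their genotype, and the 3M libraries lay above the P29 libraries in each genotype. Acsl1 fell by 0.56 on the log2 scale from P11 to P29 in controls (SE 0.14, adjusted p 0.000541) and by 0.80 in mutants (SE 0.13, adjusted p 5.4e-07). It then rose in controls by 0.46 (SE 0.13, adjusted p 0.0108), while the mutant value of 0.29 was not called. Without library 4 of the P29 controls the control rise was 0.40 with an adjusted p of 0.0606.

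The acyl-CoA dehydrogenases, which carry out the first oxidation step on chains of different length, held 4 tested members. From P11 to P29, 2 rose in controls (Acadl and Acads) and 3 in mutants (Acadl, Acadm and Acads). Acadl rose again in controls from P29 to 3M, and Acadl and Acadvl rose in mutants. Acadl, the long-chain enzyme, lies at chromosome 1, 66830839 to 66863277. Its control libraries had 71.2, 83.2, 115 and 92 CPM at P11, 154, 150, 146 and 146 at P29, and 207, 212, 176 and 221 at 3M. Mutant libraries had 68.5, 82, 72.4 and 120, then 155, 167, 133 and 143, then 193, 199, 219 and 232. No libraries of successive ages overlapped in either genotype. The log2 fold changes from P11 to P29 were 0.73 in controls (SE 0.13, adjusted p 1.84e-06) and 0.79 in mutants (SE 0.13, adjusted p 2.06e-07). The next step, to 3M, gave 0.45 (SE 0.12, adjusted p 0.00534) and 0.49 (SE 0.12, adjusted p 0.0019).

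Acads, the short-chain enzyme, rose early and then levelled. Control libraries had 22.9, 18.6, 22.7 and 18 CPM at P11, 48, 54.4, 48.9 and 43 at P29, and 38.6, 54.5, 46.9 and 51.2 at 3M. Mutant libraries had 21, 16.9, 22.7 and 23.4, then 59.3, 26.3, 48.1 and 32.4, then 46.8, 68.6, 46.1 and 52.7. Every P29 library stood above every P11 library of its genotype, and P29 and 3M overlapped. The first rise was 1.23 in controls (log2, SE 0.23, adjusted p 5.91e-06), the highest value of a member in that comparison, and 0.97 in mutants (SE 0.23, adjusted p 0.000336). Values from P29 to 3M were -0.03 and 0.37, neither called. Acadm, the medium-chain enzyme, averaged 45.6 CPM in P11 controls (SD 13.7, n = 4) and 59.8 CPM in P29 controls (SD 6.53, n = 4), a log2 fold change of 0.38 that was not called. In mutants it rose from 44.7 to 76.3 CPM (0.78, SE 0.19, adjusted p 0.000706).

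Acadvl, the very-long-chain enzyme of the inner membrane, was called in 1 age comparison. Control libraries had 126, 107, 135 and 113 CPM at P11, 128, 132, 102 and 120 at P29, and 167, 146, 145 and 137 at 3M. Mutant libraries had 105, 107, 95.1 and 112, then 93.7, 84, 77 and 121, then 123, 132, 148 and 136. In both genotypes the 3M libraries lay above the P29 libraries, by little in mutants. This step was called in mutants, at 0.52 (SE 0.13, adjusted p 0.00188), and not in controls, at 0.30. Its 3′ end overlaps Dvl2 on the opposite strand, which had 1401 counts in all, so Acadvl reads are uncertain in the same way as those of Crat. The genes that overlap the 3′ ends of Hadha (Garem2), Eci2 (Gm16984), Acaa1a (Slc22a14) and Ucp2 (Dnajb13) on the opposite strand had 2, 3, 0 and 0 counts in all.

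The trifunctional protein and the later steps of the spiral held 5 tested members, of which 3 (Hadha, Hadh and Acaa2) rose from P11 to P29 in each genotype and 1 (Acaa2) from P29 to 3M in each. Acaa2, the thiolase that releases acetyl-CoA, lies at chromosome 18, 74779197 to 74806208. Control libraries had 82.8, 65.3, 68.6 and 57.1 CPM at P11, 109, 141, 97 and 120 at P29, and 168, 156, 184 and 178 at 3M. Mutant libraries had 50.4, 53.8, 61.3 and 61.8, then 119, 114, 132 and 100, then 161, 155, 143 and 163. The libraries of successive ages did not overlap. The log2 fold changes from P11 to P29 were 0.76 in controls (SE 0.13, adjusted p 1.92e-06) and 1.03 in mutants (SE 0.13, adjusted p 4.11e-10). By 3M Acaa2 had changed further by 0.56 (SE 0.13, adjusted p 0.000598) and 0.42 (SE 0.13, adjusted p 0.0144). The last call was lost without 3M mutant library 4 (0.40, adjusted p 0.0507) or P29 mutant library 4 (0.36, adjusted p 0.086).

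Hadha, the subunit with the hydratase and dehydrogenase activities, averaged 116 CPM in P11 controls (SD 10.4, n = 4), 160 CPM in P29 controls (SD 10.9) and 181 CPM in 3M controls (SD 2.11). In mutants it averaged 114 (SD 25.1), 149 (SD 12.9) and 176 CPM (SD 8.67). The first step was called in both genotypes (log2 0.47, SE 0.12, adjusted p 0.000903 in controls, and 0.38, SE 0.12, adjusted p 0.00725 in mutants). Without library 1 of the P11 mutants the mutant value was 0.30 with an adjusted p of 0.0641. Hadhb, the thiolase subunit gene on the other side of the 85-base gap, ran from 14.3 to 57.3 CPM over all libraries. Its log2 fold change from P11 to P29 in controls was 0.55 (SE 0.25), near that of Hadha, and was not called, as in the other age comparisons. It passed without P11 control library 3 (0.88, adjusted p 0.0059), P11 control library 4 (0.67, adjusted p 0.0469) or P29 control library 3 (0.67, adjusted p 0.0452). Hadh, the short-chain 3-hydroxyacyl dehydrogenase, rose from 85.8 to 138 CPM in controls (0.69, SE 0.13, adjusted p 8.87e-06) and from 85.1 to 126 CPM in mutants (0.57, SE 0.13, adjusted p 0.000255). Its later value in mutants, 0.33, passed with voom or with the compared libraries alone (adjusted p 0.0298 in both). Echs1, the short-chain hydratase, ran from 26.4 to 80.8 CPM over all libraries and was not called with age, though it passed from P11 to P29 in mutants without P11 library 1 (0.58, adjusted p 0.0294) or P29 library 3 (0.55, adjusted p 0.0379).

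The auxiliary enzymes let unsaturated fatty acids enter the spiral, and Eci1, which moves double bonds, rose in each interval and genotype. Eci1 lies at chromosome 17, 24426641 to 24439348. Its control libraries had 97.5, 73.6, 95.1 and 84.6 CPM at P11, 183, 186, 181 and 197 at P29, and 224, 296, 252 and 310 at 3M. Mutant libraries had 84.6, 131, 131 and 110, then 159, 192, 176 and 168, then 255, 248, 207 and 310. No libraries of successive ages overlapped within a genotype. The log2 fold changes from P11 to P29 were 1.08 in controls (SE 0.12, adjusted p 9.04e-13) and 0.60 in mutants (SE 0.12, adjusted p 1.47e-05). Over the later interval Eci1 rose by 0.53 (SE 0.11, adjusted p 0.000201) and 0.55 (SE 0.11, adjusted p 0.000131).

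Decr1, the dienoyl-CoA reductase, was called in the later interval in controls and the earlier one in mutants. Control libraries had 37.3, 62.9, 55.4 and 43.4 CPM at P11, 53.4, 50.1, 53.7 and 80.5 at P29, and 90.2, 103, 87.8 and 95.9 at 3M. Mutant libraries had 47.9, 40.4, 40.4 and 54.6, then 79.5, 69.1, 61.7 and 50, then 91.7, 93.8, 76.6 and 86.2. The 3M controls stood above the P29 controls, and P11 and P29 mutants overlapped by 1 library. The control rise from P29 to 3M was 0.67 (log2, SE 0.17, adjusted p 0.00219). The mutant rise from P11 to P29 was 0.50 (SE 0.17, adjusted p 0.0195), and it lost its call without P11 mutant library 2 (0.45, adjusted p 0.0648), P11 mutant library 3 (0.45, adjusted p 0.0624) or P29 mutant library 1 (0.40, adjusted p 0.106). The later mutant value, 0.42, passed with voom (0.47, adjusted p 0.0159), with the compared libraries alone (0.40, adjusted p 0.0369) or without P29 mutant library 1 (0.53, adjusted p 0.0443). The differences between genotypes were not called. Eci2, a related isomerase found also in peroxisomes, ran from 23.2 to 74.3 CPM over all libraries and was called in no comparison.

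The electron transfer flavoprotein, which takes electrons from the dehydrogenases, is a dimer of the products of Etfa and Etfb. Etfb, at chromosome 7, 43444083 to 43457800, rose in each interval and genotype. Control libraries had 167, 193, 200 and 207 CPM at P11, 254, 311, 310 and 270 at P29, and 398, 413, 387 and 396 at 3M. Mutant libraries had 171, 177, 174 and 157, then from 240 to 295, then 377, 397, 372 and 391. Each age stood clear of the one before in both genotypes. The log2 fold changes from P11 to P29 were 0.58 in controls (SE 0.09, adjusted p 1.27e-07) and 0.63 in mutants (SE 0.09, adjusted p 1.13e-08). The later rises of Etfb were 0.47 (SE 0.09, adjusted p 2.02e-05) and 0.55 (SE 0.09, adjusted p 9.5e-07). The same-strand models Gm45233 and Mir7051 overlap the 3′ end of Etfb, and Gm45233 had 0 counts.

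Etfa was called from P11 to P29 in both genotypes with more spread. Control libraries had 23.6, 8.38, 15.7 and 29.6 CPM at P11, 24.6, 28.2, 51.1 and 32.1 at P29, and 31.5, 39.7, 35.6 and 45.2 at 3M. Mutant libraries had 22.5, 14.3, 23.1 and 12.5, then 34, 27.1, 30.2 and 39.1, then 32.4, 17.8, 33.6 and 30.5. P11 and P29 overlapped in controls and did not in mutants. Etfa rose by 0.79 (log2) in controls (SE 0.27, adjusted p 0.0195) and 0.85 in mutants (SE 0.28, adjusted p 0.0111). The control call was lost without P11 library 2 (0.55, adjusted p 0.127), P11 library 3 (0.70, adjusted p 0.0573) or P29 library 3 (0.52, adjusted p 0.19), and with voom (0.80, adjusted p 0.0854) or the compared libraries alone (0.77, adjusted p 0.0657). The mutant call was lost without P11 library 4 (0.71, adjusted p 0.0604). Etfdh, which passes the electrons on to ubiquinone, ran from 7.18 to 42.6 CPM over all libraries and was not called, though it passed from P11 to P29 in controls without P11 library 3 (0.90, adjusted p 0.0406).

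**Figure D3:**
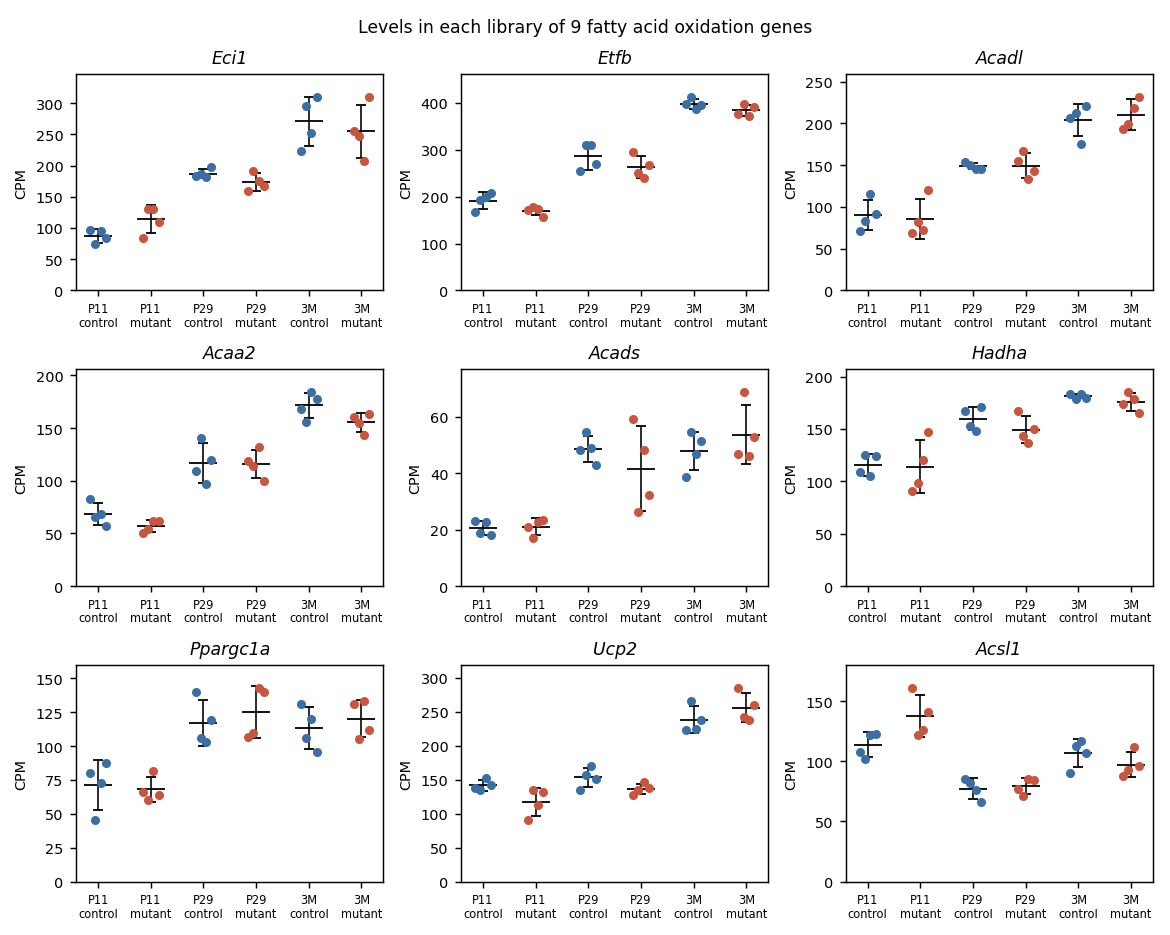
CPM (y axis, from 0) of 9 members in each library (points) with the mean and SD of each group (bars), by age and genotype. Eci1, Etfb, Acadl and Acaa2 climb at each age, Acads, Hadha and Ppargc1a mainly by P29, Ucp2 by 3M, and Acsl1 is low at P29.

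Of the peroxisomal enzymes, which shorten very long chains, Hsd17b4 rose from P11 to P29 in both genotypes and Acaa1a in controls. Hsd17b4, the D-bifunctional protein, had 16.6, 14.4, 22.7 and 17.5 CPM in P11 controls, 24.9, 31.8, 28.3 and 35.1 in P29 controls, and 18, 47.8, 34.3 and 29.8 in 3M controls. Mutant libraries had 19.1, 15.2, 15.1 and 12.9, then 26.7, 42.8, 36.2 and 32.4, then 39, 40.8, 42.1 and 41.8. The P11 and P29 libraries did not overlap in either genotype. Hsd17b4 rose by 0.75 (log2) in controls (SE 0.26, adjusted p 0.0192) and 1.15 in mutants (SE 0.26, adjusted p 0.000207). The control call was lost without P11 library 2 (0.67, adjusted p 0.0559) or P29 library 4 (0.68, adjusted p 0.0587), and with voom (0.70, adjusted p 0.086) or a fit to the compared libraries alone (0.73, adjusted p 0.0625).

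Acaa1a, a peroxisomal thiolase, averaged 37.8 CPM in P11 controls (SD 4.25, n = 4) and 54.4 CPM in P29 controls (SD 12.8), a log2 fold change of 0.51 (SE 0.20, adjusted p 0.0348). This call was lost without P11 control library 3 (0.45, adjusted p 0.1) or P29 control library 2 (0.35, adjusted p 0.216), and with 4 of the other settings. The mutant value was -0.07 and not called, and the difference between genotypes was -0.58 (SE 0.28, adjusted p 0.321).

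Among regulators and fuel switches, Ppara, the receptor for fatty acids, was not called in any comparison. Its control libraries had 25.6, 19.8, 26.4 and 18 CPM at P11, 21, 10.7, 21.7 and 21.7 at P29, and 18.5, 19.4, 30.4 and 10.9 at 3M. Mutant libraries had 26.9, 14.3, 19.1 and 12.9, then 31.7, 21.6, 18.7 and 19.9, then 12.1, 9.99, 30.9 and 20.5. All 6 groups overlapped. The SE of its log2 fold change was 0.32 in the genotype comparisons, so small changes were not detectable with an SE of this size.

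Ppargc1a, the coactivator of Ppara and of mitochondrial biogenesis, rose from P11 to P29. Control libraries had 80.2, 45.5, 72.4 and 87.8 CPM at P11, 140, 106, 103 and 119 at P29, and 131, 106, 120 and 95.5 at 3M. Mutant libraries had 66, 60.3, 81.8 and 63.8, then 107, 110, 143 and 140, then 131, 105, 133 and 112. The P29 libraries stood above the P11 libraries in each genotype and overlapped those at 3M. The log2 fold change was 0.70 in controls (SE 0.15, adjusted p 5.79e-05) and 0.88 in mutants (SE 0.15, adjusted p 4.78e-07), followed by -0.05 and -0.06 from P29 to 3M, neither called.

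Ucp2, an inner membrane carrier linked to fatty acid use, rose in the later interval. Control libraries had 138, 134, 152 and 142 CPM at P11, 135, 157, 170 and 151 at P29, and 223, 266, 225 and 237 at 3M. Mutant libraries had 90.9, 135, 112 and 132, then 128, 134, 146 and 137, then 285, 242, 237 and 260. The 3M libraries stood clear of the earlier ones in both genotypes. Its log2 fold change from P29 to 3M was 0.63 in controls (SE 0.11, adjusted p 3.05e-06) and 0.91 in mutants (SE 0.11, adjusted p 4.52e-11), while from P11 to P29 the values of 0.11 and 0.21 were not called.

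The 3 ketone body members were called in no comparison. Acat1, the thiolase of both directions of ketone metabolism, ran from 88.1 to 114 CPM in P11 controls and from 81.4 to 108 CPM in P29 controls. Bdh1, which interconverts acetoacetate and beta-hydroxybutyrate, ran from 6.3 to 31 CPM over all libraries. Its log2 fold change between genotypes at P11 was -0.03 with an SE of 0.31, so small changes of Bdh1 were not detectable. At 3M Bdh1 averaged 16.1 CPM in controls and 22 CPM in mutants without being called. Oxct1, the enzyme that commits ketone bodies to use, averaged 146, 141 and 143 CPM in controls at P11, P29 and 3M, and 161, 136 and 146 CPM in mutants. Its log2 fold change from P11 to P29 in mutants passed with median-of-ratios size factors alone (-0.31, SE 0.12, adjusted p 0.0438).

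Of 9 listed genes of ketone metabolism and transport outside the 33 members, 6 rose and 0 fell from P11 to P29 in each genotype. The other 3 were not called, with the lowest log2 fold change at -0.68 in controls and -0.90 in mutants. The background of higher calls was 16.5% of all tested genes in controls and 16.4% in mutants. From P29 to 3M, 4 of the 9 rose in controls and 5 in mutants, and 0 fell, beside 3.49% and 5.44% of all genes called higher. The lactate transporter gene Slc16a8, itself an RPE marker and overlapped at its 3′ end by the opposite-strand model Gm49486, rose from 486 to 1101 CPM in controls from P11 to P29 (1.18, SE 0.07, adjusted p 4.96e-30). In mutants it rose from 440 to 976 CPM (1.15, SE 0.07, adjusted p 3.51e-29). Bsg, the chaperone of these transporters, rose from 966 to 1728 CPM in controls (0.84, SE 0.06, adjusted p 2.2e-23) and from 803 to 1586 CPM in mutants (0.98, SE 0.06, adjusted p 7.66e-28). Bdh2, a relative of Bdh1 picked out after its values were seen, had 51.6, 74.2, 39 and 54.5 CPM in P11 controls, 140, 160, 168 and 137 in P29 controls, and 184, 210, 183 and 205 in 3M controls. In mutants Bdh2 ran from 47.9 to 58.2 CPM at P11, from 115 to 137 at P29 and from 169 to 213 at 3M. Libraries of successive ages did not overlap in either genotype.

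**Figure D4:**
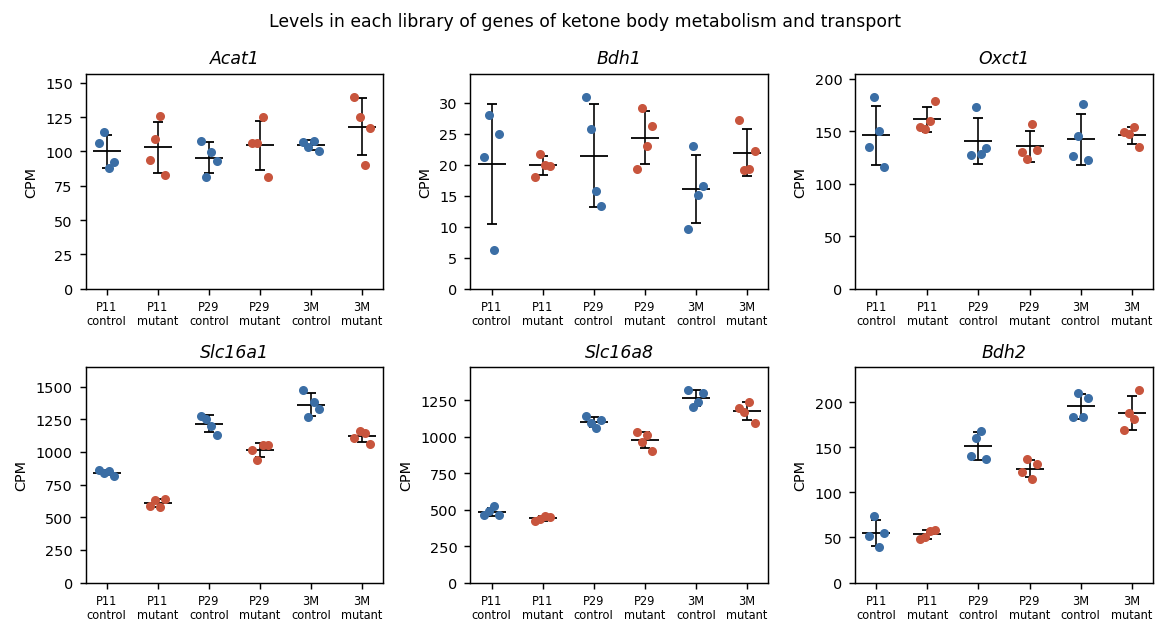
CPM (y axis, from 0) of 6 genes of ketone body metabolism and transport in each library (points) with group mean and SD (bars). Acat1, Bdh1 and Oxct1 overlap across ages, Slc16a8 and Bdh2 climb with age in both genotypes, and Slc16a1 is lower in mutants at each age.

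The other genes of the pathway, 80 of 89 listed that passed the filter, were also called with age more often as higher than as lower. From P11 to P29, 30 rose and 9 fell in controls, with a median log2 fold change of 0.45, and 35 rose and 6 fell in mutants, with a median of 0.45. Among all tested genes 16.5% rose and 15.6% fell in controls, and 16.4% and 15.2% in mutants. From P29 to 3M, 14 rose and 3 fell in controls (median 0.20), beside 3.49% and 8.5% of all genes, and 21 rose and 3 fell in mutants (median 0.25), beside 5.44% and 7.27%. Without 3M control library 4 the control count was 10 in all instead of 17. All 6 tested lipid droplet and lipolysis genes rose in mutants from P11 to P29, and 5 of 6 in controls. Of 18 other mitochondrial oxidation enzymes 7 rose in controls and 11 in mutants over that interval, and of 18 other peroxisomal genes 6 and 8, with 0 falling. All the falls lay in the remaining lists. Of 11 genes of fatty acid uptake and activation 4 rose and 4 fell in controls, and 2 rose and 2 fell in mutants. Of 18 other regulators and PPAR target genes 2 rose and 5 fell in controls (median -0.12), and 2 rose and 4 fell in mutants (median -0.24). Acsl6, another acyl-CoA synthetase, rose from 160 to 435 CPM in controls (1.43, SE 0.09, adjusted p 6.42e-26). The peroxisomal catalase gene Cat rose from 78.3 to 199 CPM in mutants (1.34, SE 0.11, adjusted p 1.89e-19). Ppargc1b, the relative of Ppargc1a, went the other way and fell by 2.14 on the log2 scale in controls (SE 0.18, adjusted p 1.43e-18) and by 2.35 in mutants (SE 0.18, adjusted p 3.01e-21). From P29 to 3M the lipid droplet coat gene Plin2 rose from 114 to 176 CPM in controls (0.63, SE 0.12, adjusted p 4.83e-05) and from 83.7 to 162 CPM in mutants (0.95, SE 0.13, adjusted p 1.92e-09).

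The genotype comparison asked whether loss of Ift20 in pigment cells shifts these genes at each age. At P11, 1 of 29 tested members, Eci1, was called higher in mutants, beside 6.93% of all tested genes called (3.26% higher and 3.67% lower). The members' median was 0.00, beside -0.00 for all genes. An unadjusted p under 0.05 was reached by 4 of the 29 members, beside 2292 of the 12303 tested genes. Eci1 averaged 87.7 CPM in controls (SD 10.9, n = 4) and 114 CPM in mutants (SD 22, n = 4), with the library values given above. A single mutant library, at 84.6 CPM, lay within the control range of 73.6 to 97.5 CPM, and the other 3 lay above it. The log2 fold change was 0.38 (SE 0.12, adjusted p 0.0465). This call was not kept by DESeq2 (0.37, adjusted p 0.0788), voom (0.33, adjusted p 0.389), median-of-ratios factors (0.37, adjusted p 0.0534) or a fit to the compared libraries alone (0.36, adjusted p 0.198). It was lost as well without control library 2 (0.30, adjusted p 0.172) or 4 (0.36, adjusted p 0.0842), or without mutant library 2 (0.30, adjusted p 0.196), 3 (0.30, adjusted p 0.194) or 4 (0.39, adjusted p 0.0589). At this age the mitochondrial share and the reads with no feature, given above, were also higher in each mutant library than in any control library, and their part in the result was not tested.

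At P29 edgeR called 0 of 29 members, beside 2.84% of all genes (1.63% higher and 1.21% lower). At 3M it called 0 of 29, beside 2.61% (2.13% higher and 0.48% lower). An unadjusted p under 0.05 was reached by 2 members at P29 and 0 at 3M, beside 1397 and 1386 of the 12303 tested genes. DESeq2 and voom also called 0 members at both ages. The medians were -0.10 at P29 and -0.04 at 3M, beside -0.00 and 0.03 for all genes. At P29 the member values ran from -0.45 to 0.35 and at 3M from -0.63 to 0.45, with a median SE of 0.19 at each age. The lowest unadjusted p at P29 belonged to Acadvl, with a mean of 121 CPM in controls and 94 CPM in mutants (log2 -0.36, SE 0.13, adjusted p 0.137). It passed without library 4 of the P29 mutants (-0.51, adjusted p 0.0234). At P11 Echs1 averaged 53.9 CPM in controls and 38.8 CPM in mutants (-0.48, SE 0.20, adjusted p 0.142) and passed without library 3 of the controls (-0.69, adjusted p 0.0176).

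The genotype effect was also compared between ages. By edgeR 0 of 29 members differed between P29 and P11, beside 2.63% of all genes (1.45% higher and 1.18% lower). Between 3M and P29 it was 0 of 29, beside 0.853% (0.61% higher and 0.244% lower). The member counts with an unadjusted p under 0.05 were 2 and 1, beside 1677 and 1141 of the 12303 tested genes. DESeq2 and voom called 0 members in both. The value of Eci1 for P29 minus P11 was -0.48 (SE 0.17, adjusted p 0.122), and without library 1 of the P11 mutants it was -0.59 with an adjusted p of 0.0405.

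**Figure D5:**
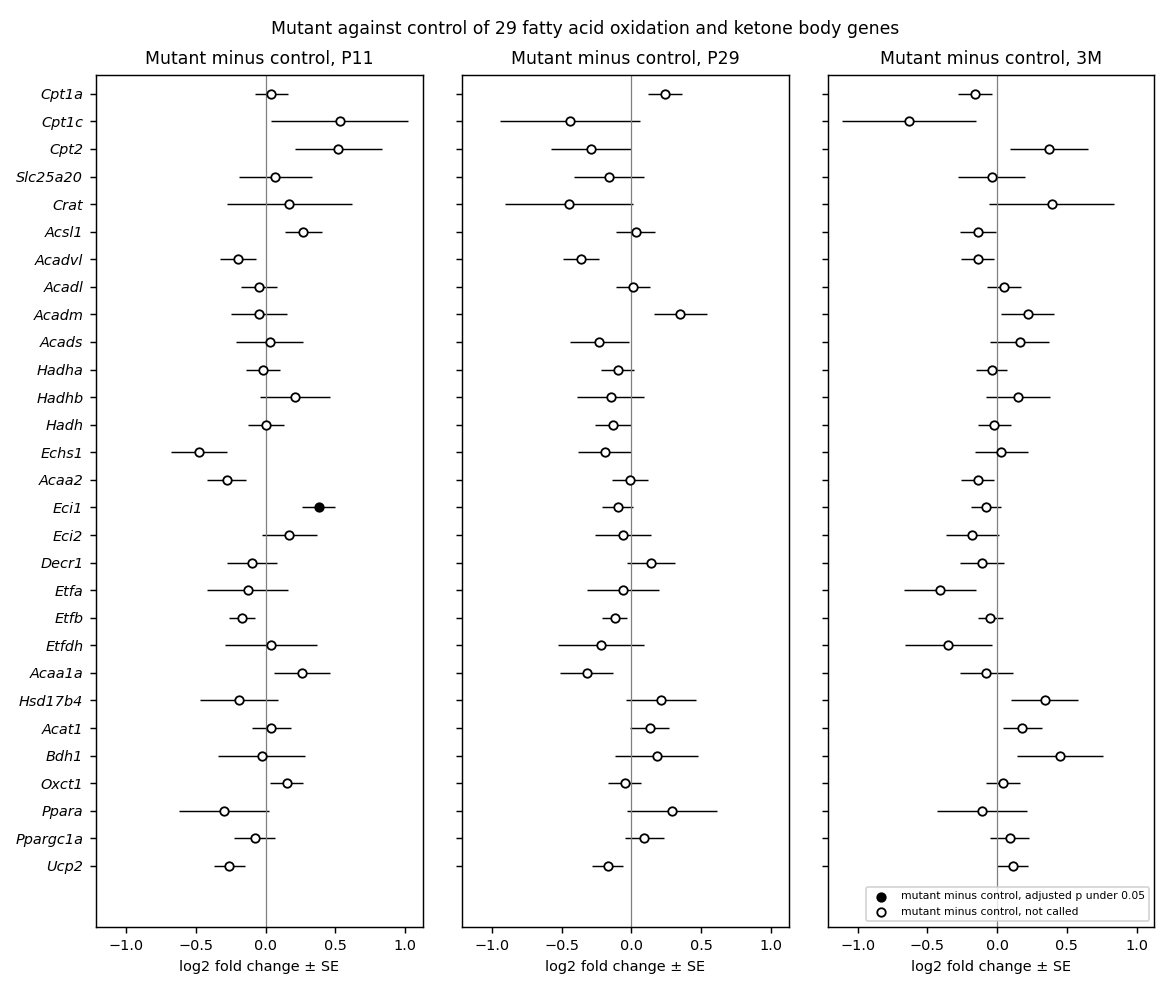
Log2 fold change of mutants against controls (x axis, with its SE as bars) for the 29 tested members at P11, P29 and 3M; the filled symbol has an adjusted p under 0.05. Most bars cross or lie near 0, and Eci1 at P11 is the single filled symbol.

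Of the 80 other pathway genes, 4 were higher and 5 lower in mutants at P11, 1 higher and 3 lower at P29, and 0 higher and 1 lower at 3M. The shares called were 11.2%, 5% and 1.25%, beside 6.93%, 2.84% and 2.61% of all tested genes. With a library left out the counts ran from 4 to 8 at P11, 1 to 3 at P29 and 1 to 2 at 3M. The count was 4 at P11 without mutant library 2, and at P29 it was 1 without mutant library 2 and 2 without mutant library 4 or control library 4. At 3M it was 2 without control library 1 or 2 or mutant library 4. Slc16a1, the transporter of lactate and ketone bodies, was lower in mutants at each age. Control libraries had 862, 836, 851 and 815 CPM at P11, 1278, 1255, 1202 and 1129 at P29, and 1471, 1268, 1379 and 1332 at 3M. Mutant libraries had 584, 635, 582 and 638, then 1012, 938, 1050 and 1053, then 1110, 1160, 1145 and 1062. The genotypes did not overlap at any age. It fell by 0.46 (SE 0.06, adjusted p 4.72e-08), 0.26 (SE 0.06, adjusted p 0.00456) and 0.28 (SE 0.06, adjusted p 0.00167) on the log2 scale.

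At P11 Bsg was lower in mutants as well (-0.27, SE 0.06, adjusted p 0.00102), as was the monoacylglycerol lipase gene Mgll (-0.26, SE 0.07, adjusted p 0.0114). The corepressor gene Ncor1, whose 3′ end overlaps Ttc19 on the opposite strand, was higher (0.57, SE 0.09, adjusted p 7.18e-07). At P29 the fatty acid binding protein gene Fabp5 averaged 1.09 CPM in controls and 10.1 CPM in mutants (3.07, SE 0.62, adjusted p 0.000334). Its control level was near the floor, and these mutant libraries held the high lens marker sum. Plin2 (-0.44, SE 0.13, adjusted p 0.0299) and Acsl6 (-0.30, SE 0.09, adjusted p 0.0388) were lower in the P29 mutants.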

How the data were processed

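Counts near the 3′ ends of transcripts (QuantSeq kit, per the labels' protocols) were deposited as whole-number counts per Ensembl gene, 1 file per library. The submitters' processing notes name STAR and mm10 and no version. Counting tool, annotation, strand setting and any molecular identifiers were not given in the sources used here. The files each held 31053 gene identifiers and 5 entries that name no gene. The latter stayed out of library sizes and tests, and reads with no feature made up 18.6% to 27.5% of a library, ambiguous reads 0.192% to 0.322% and multiply aligned reads 31% to 37.2%. Symbols and positions came from GENCODE M21 on GRCm38, the assembly of mm10, with 30934 identifiers matched to a symbol and 119 not.

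Groups follow genotype and age as labelled. The main test was edgeR's robust quasi-likelihood fit (version 4.0.16, R 4.3.3), made after filterByExpr and TMM with a mean for each of the 6 groups over all 24 libraries. The variation between libraries beyond counting noise, fitted within each group, was 32.7% in P11 controls and 14.9% in 3M mutants. It was 21.8% to 22.4% in the remaining groups. The shared estimate can thus understate the spread of P11 controls and overstate that of 3M mutants. P-values were adjusted by Benjamini-Hochberg over the 12303 genes that passed, and a gene was called at an adjusted p under 0.05. SEs were obtained as log2 fold change over the square root of F. Other settings tried were DESeq2 1.42.0, its median-of-ratios size factors in edgeR, voom of limma 3.58.1 with quality weights, no low-count filter, a filter of 5 CPM in 4 libraries, a fit to the compared libraries alone, the replicate number as a block, and leaving out each library. The scripts were tested on simulated data.

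The 33 members, the 89 other pathway genes in 6 lists and the 101 marker genes were chosen with earlier results of these data known. Values of each library are printed for members called between genotypes, for the 6 members with the largest called change in each age comparison, and for the 3 Cpt1 genes and Ppara. Up to 5 other pathway genes with the smallest p are named per comparison, except 2 that are counted in their lists but not reported here, and Oxct1, Acadm, Hadha, Hadh, Hadhb and Echs1 are given by means or ranges. Within groups, counts of each of the 36 library pairs were further apart than sampling noise gives (chi-square of 2.98 to 7.15 per gene), and none was merged.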

Additional observations from a re-analysis of the deposited data

Results flagged for a closer look

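In groups of 4 libraries, a single library stood far from the other 3 in 7 of 174 checks (29 members in 6 groups). Chance alone marks about 1 in 20 groups. In P29 controls, Crat reached 12.7 CPM in 1 library beside 8.89 to 9.25 in the others. Decr1 reached 80.5 CPM beside 50.1 to 53.7, and Oxct1 reached 173 CPM beside 127 to 134 in that group. Ppara was low in 1 library of P29 controls, at 10.7 CPM beside 21 to 21.7. In P11 controls Acadm was low in 1 library, at 25.2 CPM beside 50.2 to 54.5, and Eci2 was high, at 54.5 CPM beside 39.7 to 41.8. In P29 mutants Hadh was low in 1 library, at 108 CPM beside 131 to 133.

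The genotype effect differed between P29 and P11 for 2 of the 80 other pathway genes by the edgeR test of that difference. That is 2.5% of them, beside 2.63% of all tested genes, so the count was near the background. The fatty acid binding protein gene Fabp5 differed by 3.73 on the log2 scale (SE 0.79, adjusted p 0.00115). Its P29 mutants had 9.19, 6.28, 14.9 and 10.2 CPM and its P29 controls 2.49, 0.397, 1.47 and 0 CPM. These control values lay near or below the floor of 1.04 to 1.98 CPM, so the size of the fold change is uncertain. The P29 mutant libraries also held the high lens marker sum. The corepressor gene Ncor1 differed by -0.66 (SE 0.12, adjusted p 0.000108), being higher in mutants at P11 (0.57) and at -0.09 at P29. The 3′ end of Ncor1 overlaps Ttc19 on the opposite strand, with the strand setting of the counting not given in the sources used here.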

How the results depend on the processing

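The member counts of the 4 age comparisons stayed within 1.5 times their main values under each alternative run, and no member changed direction while called. With libraries left out 1 at a time they ran from 11 to 14 and 7 to 8 in controls, and 12 to 14 and 6 to 8 in mutants. The count of 1 for mutants against controls at P11 was 0 with DESeq2, voom, median-of-ratios factors and the compared libraries alone, and ran from 0 to 2 with a library left out. At P29 it ran from 0 to 1 and at 3M from 0 to 0, and for the differences of genotype effects from 0 to 1 and from 0 to 0. The cause was not tested.

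With the replicate number as a block, Eci1 at P11 had an adjusted p of 0.0587, the P11 count was 0, and the age counts were 13 and 8 in controls and 13 and 7 in mutants. Between same-numbered libraries the mean correlation was 0.00189 over 60 pairs (from -0.159 to 0.0731), beside -0.000612 over 180 pairs with different numbers. However, 12 of 24 libraries were closest to their own number, more than random numbering gives on average. Whether this excess is beyond chance was not tested.

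Over all genes, voom called 563 at P11 instead of 853 (294 higher and 269 lower), and 168 instead of 105 for the genotype effect at 3M minus P29. The share of calls that were higher at 3M was 81.6%, and 65.5% with voom and 59.4% with the compared libraries alone. From P29 to 3M in controls it was 29.1%, and 41.3% with the compared libraries alone. Other pathway genes called in mutants numbered 5 instead of 9 at P11 with voom or the compared libraries alone, 2 instead of 4 at P29 without the filter, and 6 and 5 instead of 1 at 3M with voom and the compared libraries alone. For the genotype effect at 3M minus P29, DESeq2 called 1 of them and edgeR 0. Cpt1c and Crat had libraries near the floor, with lowest values of 1.2 and 1.8 CPM in P11 controls. The part of depth in their spread was not tested.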
